A study of Mus musculus with 225 samples.

Results

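The cells described here are the single cells of the zeugopod, the part of the limb from which the forearm forms, taken from mouse forelimbs at embryonic day 12.5. They were chosen by tissue label and by presence in the normalized table that the authors kept after their quality filter, and no expression value was used to pick them. Of the 199 retained cells of the study, 76 were autopod (future hand) cells and the remainder, 58 cells of run NXT0142 and 65 of run NXT0143, are the cells described, out of 60 and 69 zeugopod cells in the count table. The embryos were heterozygous for *Hoxd11::GFP*, on a mixed C57Bl6CBAF1 background. This knock-in places a bi-cistronic cassette, with an internal ribosome entry site and tau-GFP, in frame in *Hoxd11*. According to the paper the insertion inactivates the gene, and every cell carries that allele. Forelimbs of several embryos were pooled, dissociated with collagenase and sorted for the brightest GFP, so cells of the zeugopod with little *Hoxd11* reporter are not represented. Cells were captured on a Fluidigm C1 chip, where each cell is lysed in its own chamber, and full-length cDNA was amplified. The cells are treated as 1 pooled sample and are not replicates, so no p-value was computed from them. Every pattern was required in each of the runs. Run, chip and pool cannot be told apart, and whether the runs drew on the same pool is not known.

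At this stage the zeugopod is mostly mesenchyme derived from lateral plate mesoderm. *Hox* genes of groups 10 and 11 pattern the forearm skeleton, and *Shox2* is a homeobox factor of the more proximal limb. Part of the mesenchyme condenses and turns on *Sox9*, the master regulator of cartilage, followed by *Sox5* and *Sox6* and the collagens they drive. The remainder gives connective tissue, tendon and perichondrium, while muscle precursors, vessels and blood enter the limb from elsewhere.

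Reads on genes per cell ranged from 186271 to 6801278, the median cell having 4048526 (NXT0142) or 2659813 (NXT0143). The number of genes with at least 1 read was 1801 at the lowest, 4283.5 at the median and 5917 at the highest in NXT0142, and 2167, 3745 and 5598 in NXT0143. Levels between genes are compared on the deposited normalized value, which is spike-in scaled and divided by gene length. Presence was read at 5 reads or more, and variation across cells on CPM (a gene's count per 1000000 gene-assigned reads in that cell). Intervals are exact Clopper-Pearson 95% intervals, and they cover counting error over cells only.

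The label of the cells was first checked with 7 zeugopod markers. *Col1a1*, a fibrillar collagen of connective tissue, had at least 5 reads in 58 of 58 cells of NXT0142 and 62 of 65 of NXT0143 (97.6% in all, interval 93.04 to 99.5). *Hoxd11* was present in 98 cells (79.7%, 71.5 to 86.4), with 51 of the 58 NXT0142 cells and 47 of the 65 NXT0143 cells, although all cells had been sorted for its reporter. *Itm2a*, a membrane protein of developing cartilage and muscle, was also present in 98 cells, 43 and 55 by run. *Shox2* followed with 73 cells (31 and 42), *Hoxd10* with 72 (43 and 29), *Meox2*, a homeobox gene of muscle and connective tissue, with 67 (31 and 36), and *Hoxa11* with 34 (20 and 14). The intervals of *Shox2*, *Hoxd10* and *Meox2* overlapped, so their order is not resolved. Genes of the hand were nearly absent: *Hoxa13* reached 5 reads in 3 cells, *Hoxd12* in 2 and *Hoxd13* in 1.

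Levels of the same markers spread widely within each run. The normalized value of *Col1a1* was 0.302 at the lowest, 275 at the median and 1754 at the highest in NXT0142, and 0.151, 180 and 2598 in NXT0143. *Hoxd11* ranged from 0.266 through a median of 143 to 1020 in NXT0142, and from 0.266 through 40.2 to 731 in NXT0143. *Shox2* had its median at 5.37 and its highest cell at 4865 in NXT0142, against 18.6 and 3632 in NXT0143. The lowest cells of *Hoxd11* and *Shox2* lay at the floor of the table, where a gene has no read, while every NXT0142 cell had reads of *Col1a1*. The medians of *Col1a1* and *Hoxd11* were higher in NXT0142 and that of *Shox2* in NXT0143, while the ranges overlapped in all 3.

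None of the 21 pairs of the 7 markers reached a Spearman correlation of 0.5 in both runs. Over all gene pairs tested below the share was 0.00239%, so none would be expected and the count says nothing particular of these markers. Their median correlation was 0.09 in NXT0142 and 0.01 in NXT0143, against 0.03 in each run over all pairs. The pair closest to 0.5 was *Shox2* with *Col1a1*, at 0.48 over the 58 cells of NXT0142 and 0.32 over the 65 cells of NXT0143. *Meox2* with *Col1a1* gave 0.13 and 0.46. *Hoxd10* and *Hoxd11*, neighbours on chromosome 2, gave 0.04 and 0.11, and *Hoxd8* with *Hoxd11* gave 0.25 in each. *Hoxd11* with *Itm2a* changed sign, from 0.38 in NXT0142 to -0.19 in NXT0143.

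Of 19040 genes with a read in any of these cells, most were present in few of them. At 5 reads, 8693 genes were in under 5% of the cells, 5011 in 5 to 20%, 3811 in 20 to 50%, 1177 in 50 to 80%, 254 in 80 to 95% and 94 in 95% or more. Within-run patterns were then examined over the 4691 genes that reached 5 reads in 20% or more of each run's cells. Of these, 62 (1.32%) reached 5 reads in 95% or more of each run's cells and are called genes in nearly all cells. The plot of shares by run shows them in its upper right corner.

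**Figure D1:**
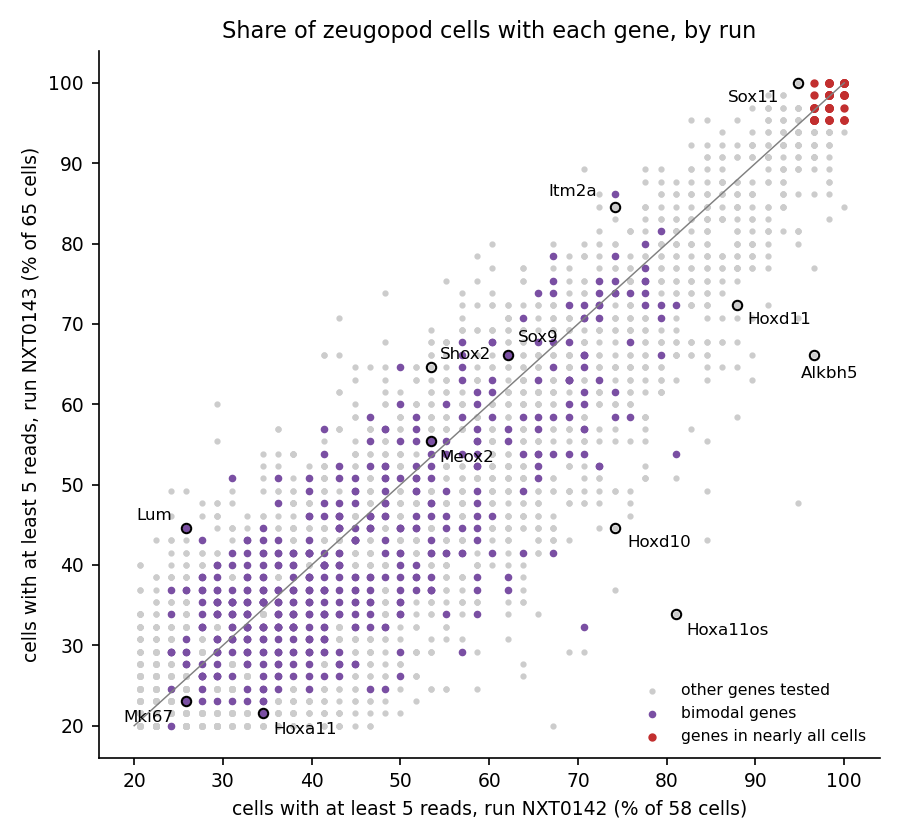
Share of cells with at least 5 reads of each gene in run NXT0142 (x axis, percent of 58 cells) against run NXT0143 (y axis, percent of 65 cells), 1 point per gene, with 12 named genes ringed. *Actb* and *Igf2* sit at 100% in both runs, *Hoxd11* at 51 and 47 cells lies in the middle range, and *Mki67* at 15 and 15 cells lies low in both.

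The 10 genes in nearly all cells with the highest median normalized value were *Rn18s-rs5* (10642), *H19* (3502), *Gpc3* (3227), *Kdelr2* (2979), *Fstl1* (2977.5), *Rpl8* (2719), *Arglu1* (2702), *Dpysl2* (2512), *Malat1* (1897) and *Gnb1* (1643). *Rn18s-rs5* carries ribosomal RNA sequence and *Malat1* is a nuclear long noncoding RNA. *H19* is an imprinted RNA that lies beside *Igf2*, an embryonic growth factor gene that had at least 5 reads in all cells of each run. Of the 22 imprinted genes listed, 18 were tested, and *H19* and *Igf2* were in nearly all cells (11.1%, beside 1.32% of all genes tested). *Gpc3*, a cell surface proteoglycan that restrains growth, ranged from 0.371 to 22342 over the cells. *Fstl1* is a secreted protein of mesenchyme and *Rpl8* a protein of the large ribosomal subunit.

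Further members of this set were spread over basic cell functions. *Igf2*, *Actb*, *Hsp90ab1*, *Marcks*, *Mdk*, *Son*, *Hnrnpl*, *Arglu1*, *Malat1* and *Rn18s-rs5* had at least 5 reads in each cell. *Actb*, cytoplasmic actin, had its normalized value at 0.745 in the lowest cell, 187 at the median and 2122 in the highest, and *Igf2* at 19.9, 770 and 3625. Splicing and RNA-binding genes (*Hnrnpk*, *Hnrnpa2b1*, *Srsf11*, *Rbm25*, *Rbm39*, *Clk1*) were among the members, as were the transcription factor *Nfia*, the coactivator *Crebbp*, the kinase *Gsk3b* and the receptor *Notch2*. Of 83 ribosomal protein genes, 47 were tested and 8 of these (17.02%) were members, among them *Rpl8*, *Rplp2*, *Rps3*, *Rps9*, *Rps19* and *Rps20*. Over the 83, the median share of cells with 5 reads was 27.6% in NXT0142 and 26.2% in NXT0143. Whether gene copies lowered these counts of uniquely mapped reads was not tested. No oxidative phosphorylation gene of 62 tested and no proteasome gene of 32 was a member, and *Srsf11* was the member among 27 spliceosome genes, counts that at a share of 1.32% over all genes say nothing particular of these families. *Mdk* and its processed pseudogene *Mdk-ps1* were both in the set and share 15.1% of the 31-base words of the smaller transcript, so their reads may be split between the copies. *Gnb2l1* shares 11.9% of such words with *RP23-246L14.4*, with the same doubt.

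Presence in nearly all cells did not mean an even level. The SD over cells of log2(normalized value + 1) had a median of 1.79 in NXT0142 and 1.88 in NXT0143 over the 62 genes, against 3.05 and 2.83 over all genes tested. The narrowest were *Rn18s-rs5* (0.82 and 1.15), *Malat1* (1.03 and 1.15), *Ubb*, a ubiquitin gene (1.26 and 1.21), *Kdm6b*, a histone H3 lysine demethylase (1.33 and 1.30) and *Hnrnpl* (1.35 and 1.24). The widest were *Lpar1*, a receptor for lysophosphatidic acid (2.73 and 3.30), *Maged1* (2.67 and 2.66), *Igsf3* (2.63 and 2.91), *Srsf11* (2.90 and 2.56) and *Hnrnpa0* (2.55 and 2.60). *Lpar1* was at its floor of 0.233 in its lowest cell and at a median of 1675 in NXT0142 and 865 in NXT0143. A smaller SD for a gene present in nearly all cells follows in part from the rule, since such a gene has few cells at the floor.

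A gene was called bimodal when 20% or more of each run's cells lay below 5 CPM, 20% or more lay at 50 CPM or above, and at most 10% lay between. This was met by 508 of the 4691 genes (10.8%). The same rule was applied to the ERCC spike-ins, synthetic RNAs added in the same amount to each cell. Of 15 spike-ins that passed the same filter, 2 were bimodal (ERCC-00108 and ERCC-00009). By mean level, 220 of 2436 genes (9.03%) between 50 and 200 CPM were bimodal and 0 of 2 spike-ins. Between 200 and 1000 CPM these were 276 of 971 genes (28.4%) and 2 of 7 spike-ins, and at 1000 CPM or more 9 of 84 genes (10.7%) and 0 of 4 spike-ins. Spike-ins took 0.233 to 12.6% of the reads of a cell in NXT0142 and 0.294 to 16.6% in NXT0143. An on and off pattern was therefore also measured for RNAs present at a constant amount, and its part in the pattern of any gene was not tested.

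The highest median CPM in high cells belonged to *Enc1* (2530 CPM, 34 high cells), *Mn1* (2255, 67 high cells), *Dhrs3* (2056, 36), *Znf512b* (1893, 74), *Fos* (1769, 84), *Ncs1* (1744, 58), *Ado* (1711, 73), *Rqcd1* (1614, 74), *Rian* (1580, 69) and *Hsdl1* (1551, 38). *Enc1* encodes an actin-binding protein, *Mn1* a transcriptional coregulator, *Dhrs3* an enzyme that reduces retinaldehyde, and *Rian* an imprinted noncoding RNA. The number of high cells among these 10 thus ran from 34 to 84.

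Of the lists for skeletal and connective tissue, the cartilage list had 4 bimodal genes of 7 tested, matrix 3 of 15 and connective regulators 1 of 9 (11.1%), beside the 10.8% of all genes. *Sox9* was high in 72 cells, low in 48 and between in 3, with 32 high cells in NXT0142 and 40 in NXT0143. *Sox5* (36 high, 76 low, 11 between) and *Sox6* (30, 85 and 8) and the cartilage collagen gene *Col9a2* (49, 70 and 4) met the rule too. *Meox2* was high in 47 cells, low in 70 and between in 6, and was the single zeugopod marker, and the single connective regulator, that was bimodal. *Lum*, a proteoglycan that organises collagen fibrils, was high in 39 cells and low in 79, with 12 of 58 high in NXT0142 and 27 of 65 in NXT0143. *Fn1* (85 high) and *Col6a3* (32 high) were the other bimodal genes of 15 tested for connective tissue matrix. *Dkk2*, a secreted Wnt antagonist (30 high, 90 low, 3 between), and *Lef1*, a Wnt effector (28 high), were those of 5 tested for Wnt signalling, and the Notch ligand *Jag1* was high in 31 cells. No *Hoxd* or *Hoxa* gene tested (3 and 4) met the rule.

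Proliferation and stress genes formed the other named part. *Mki67* was high in 25 cells, low in 97 and between in 1, *Top2a* in 35, 80 and 8, and *Cenpe* in 31, 89 and 3. The replication genes *Mcm2* (29 high), *Rrm1* (49) and *Rpa2* (35) were bimodal, 3 of 18 tested. Of 9 immediate early genes, which respond within minutes to stimulation, *Fos* (84 high, 37 low, 2 between), *Egr1* (80, 41 and 2) and *Btg2* (54, 66 and 3) met the rule, and among heat shock genes *Dnajb1* (50 high). *Id1*, a target of BMP signalling, was high in 87 cells, and *Vim*, an intermediate filament of mesenchyme, in 80. The remaining list members were *Psmc4* (78 high cells), *Psmb2* (83), *Psma1* (65) and *Psmd5* (34) of the proteasome, *Ndufb10* (71), *Ndufs8* (68), *Ndufa9* (48), *Ndufv1* (47) and *Ndufs1* (41) of respiratory complex I, *P4ha1* (39) and *Fkbp10* (30) of collagen folding, and the imprinted *Impact* (86). Against the 10.8% of all genes tested, bimodal genes made 8.06% of 62 oxidative phosphorylation genes, 12.5% of 32 proteasome genes, and none of 47 ribosomal protein, 27 spliceosome or 10 glycolysis genes. The levels of 12 genes in each cell are plotted by run.

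**Figure D2:**
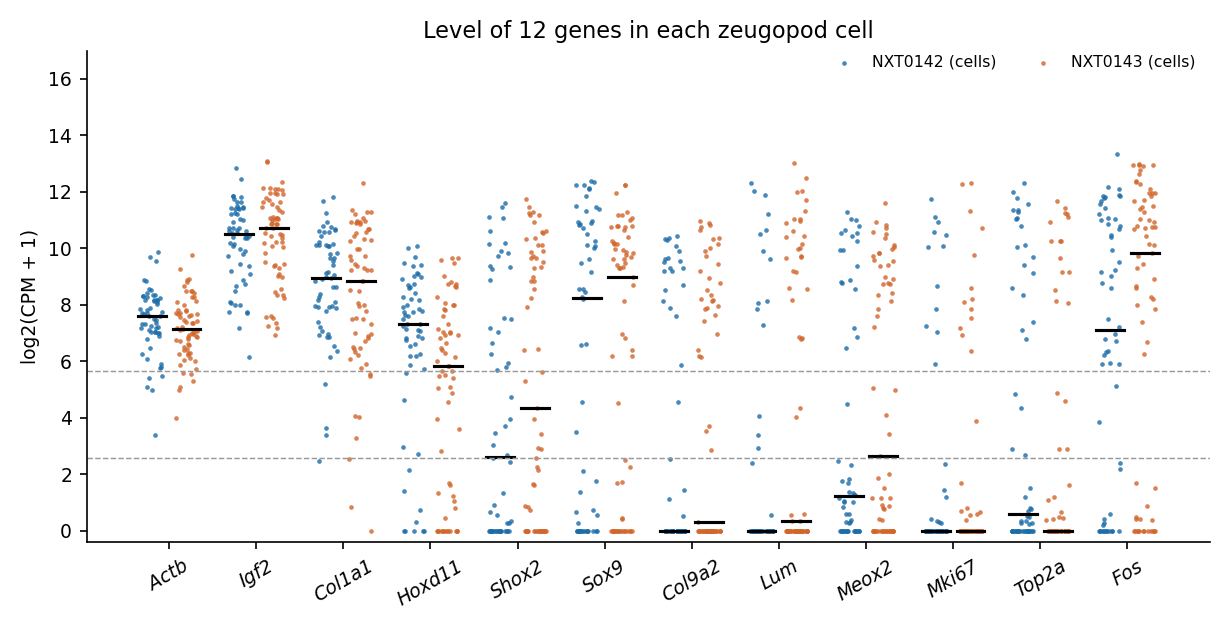
Level of 12 genes in each cell (log2(CPM + 1), y axis), with 1 point per cell, the runs side by side, bars at the medians and dashed lines at 5 and 50 CPM. *Actb* and *Igf2* have no cell below the lower line, while *Sox9* (72 high and 48 low cells), *Lum* (39 and 79) and *Mki67* (25 and 97) leave the space between the lines nearly empty.

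Genes that vary together were sought as pairs with a Spearman correlation of CPM of at least 0.5 in each run. Of 11000395 pairs, 263 (0.00239%) met this, and 82 (0.000745%) had a correlation of -0.4 or below in each run. Most pairs at 0.5 or more in 1 run did not reach it in the other. Of the 2791 pairs at 0.5 or more in NXT0142, 263 (9.42%) were so in NXT0143, beside 1365 of all 11000395 pairs. Their median correlation in NXT0143 was 0.10 against 0.03 for all pairs. Of the 1365 pairs in NXT0143, 19.3% were so in NXT0142, beside 2791 of all 11000395. Both shares were far above those over all pairs. Of the pairs among the 15 spike-ins, 0 met the rule. These pairs are so few that 0 would be expected at the share of 0.00239% over all gene pairs. The count therefore cannot show whether pairs arise from the measurement. Joining pairs that share a gene gave 3 groups of 5 genes or more, which contained 138 of the 263 pairs. They are named here by their genes as the mitotic group (29 genes), the *Col9a2*-*Sox5* group (13 genes) and the *Dkk2*-*Tpm1* group (12 genes). The correlations within a group chose its members and are a description. With the number of genes detected held fixed 2 groups remained, of 17 and 12 genes, and the *Dkk2*-*Tpm1* group kept 4 of its 12 pairs and was no longer found as a group of 5. On normalized values the largest group held 161 genes, at a correlation of 0.6 there were 2 groups, of 14 and 5 genes, and among genes in 50% of the cells of each run there was none.

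The mitotic group was led by the kinesins *Kif11* and *Kif15*, which build and hold the spindle, with 16 partners each. Its next genes included *Cdca8*, *Birc5* and *Incenp* of the chromosomal passenger complex, *Mki67*, a coat of mitotic chromosomes, *Cenpe*, *Spc24* and *Spc25* of the kinetochore, and *Top2a*, the topoisomerase that untangles chromosomes. All 9 tested genes of the 27 listed for G2 and mitosis were members. Of 18 replication genes tested, 1 was a member, *Rrm2*, a subunit of ribonucleotide reductase. Beside 29 of all 4691 genes tested this is not a low count, and it does not set replication genes apart from the group. The group's name follows its G2 and mitosis genes and does not cover every member. *Kif11* (chromosome 19, 37376403 to 37421859, GRCm38) had 5 reads in 14 cells of each run, and its normalized value reached 914 in NXT0142 and 410 in NXT0143 while the median cell was at the floor of 0.207. *Kif11* and *Cdca8* correlated at 0.84 and 0.70.

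Over the 406 pairs of the mitotic group the median correlation was 0.49 in NXT0142 and 0.45 in NXT0143. Mean log2(CPM + 1) over its genes had a median of 1.14 and a highest value of 8.09 in NXT0142, and 0.86 and 7.62 in NXT0143. That mean correlated with the number of genes detected in the cell at 0.72 and 0.48, and with the share of reads on spike-ins at -0.51 and -0.35. With the number of genes detected held fixed by partial correlation, 33 of the 100 pairs of the group still met the rule. Replication genes outside the group correlated with its mean to differing degrees, *Uhrf1* at 0.46 and 0.60, *Tyms* at 0.54 and 0.52, *Lig1* at 0.46 and 0.44, *Rrm1* at 0.40 and 0.47, and *Mcm2* at 0.23 and 0.12.

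Promoters of the mitotic group are shown because their genes moved together and because cell cycle genes carry known promoter elements, the cell cycle genes homology region (CHR, here searched as TTTGAA) and the CCAAT box bound by NF-Y. The RefSeq promoter table (GRCm38.p6, 250 bases before to 50 after the start) held 22 of the 29 genes, with 23 promoters. The promoters of the 4 most connected genes, *Kif11* (chr19:37376132-37376431, plus strand), *Kif15* (chr9:122950831-122951130, plus strand), *Cdca8* (chr4:124936868-124937167, minus strand) and *Mki67* (chr7:135716330-135716629, minus strand), read 5′ to 3′ as follows, with either motif in capitals on either strand (TTTGAA or TTCAAA, and CCAAT or ATTGG).
Kif11: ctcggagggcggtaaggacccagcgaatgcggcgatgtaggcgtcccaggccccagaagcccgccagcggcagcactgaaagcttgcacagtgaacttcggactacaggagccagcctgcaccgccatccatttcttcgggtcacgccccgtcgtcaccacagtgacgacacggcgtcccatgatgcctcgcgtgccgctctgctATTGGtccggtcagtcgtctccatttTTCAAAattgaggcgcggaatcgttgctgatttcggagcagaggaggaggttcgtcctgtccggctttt
Kif15: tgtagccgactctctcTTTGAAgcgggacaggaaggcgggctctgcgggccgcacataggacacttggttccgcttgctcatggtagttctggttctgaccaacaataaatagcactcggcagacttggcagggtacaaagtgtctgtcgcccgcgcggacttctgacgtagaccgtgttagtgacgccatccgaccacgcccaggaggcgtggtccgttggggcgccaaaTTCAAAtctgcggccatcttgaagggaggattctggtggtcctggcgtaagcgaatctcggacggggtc
Cdca8: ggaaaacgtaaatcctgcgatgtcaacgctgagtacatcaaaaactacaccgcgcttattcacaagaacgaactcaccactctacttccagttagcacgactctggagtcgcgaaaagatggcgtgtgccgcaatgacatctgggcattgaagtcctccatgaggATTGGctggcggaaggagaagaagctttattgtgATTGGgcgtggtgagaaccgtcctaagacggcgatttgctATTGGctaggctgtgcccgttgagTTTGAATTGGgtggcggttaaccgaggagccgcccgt
Mki67: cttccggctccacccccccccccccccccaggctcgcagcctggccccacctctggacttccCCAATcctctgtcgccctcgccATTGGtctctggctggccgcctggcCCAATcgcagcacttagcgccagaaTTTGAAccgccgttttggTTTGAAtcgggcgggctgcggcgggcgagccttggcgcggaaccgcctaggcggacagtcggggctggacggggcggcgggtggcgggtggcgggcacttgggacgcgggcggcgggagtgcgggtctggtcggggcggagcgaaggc

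The *Kif11* promoter held 1 of each motif, that of *Kif15* held the TTTGAA motif at 2 positions and no CCAAT, that of *Cdca8* held 1 TTTGAA and 4 CCAAT, with a base of the TTTGAA shared by a CCAAT on the other strand, and that of *Mki67* held 2 and 3 of them. TTTGAA was in 15 of the 23 promoters (65.2%, interval 42.7 to 83.6) and in 5878 of all 32851 promoters of the same length (17.9%). CCAAT was in 16 (69.6%, 47.1 to 86.8) against 12289 of all (37.4%). Both were in 12 (52.2%, 30.6 to 73.2) against 2284 of all (6.95%), and 4 of the 23 held neither. These are matches of letters, and no binding was measured.

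The *Col9a2*-*Sox5* group joined the chondrogenic regulators *Sox9*, *Sox5* and *Sox6* with the cartilage collagen genes *Col2a1*, *Col9a1* and *Col9a2*. Further members were *Vcan*, a large proteoglycan of early condensations, *Wwp2*, a ubiquitin ligase whose gene hosts a microRNA of cartilage, *Foxc1*, *Fibin*, *Lgr4*, *Sorbs2* and *Zcchc5*. *Col9a2* (chromosome 4, 121039385 to 121055322) had the most partners, 10, followed by *Sox5* and *Sox6* with 7 each. Of the 7 cartilage genes tested 6 were members, and *Col11a1*, the remaining one, correlated with the group mean at 0.47 in NXT0142 and 0.51 in NXT0143. All 78 pairs were above 0 in each run, with medians of 0.53 and 0.52, and 21 of the 26 called pairs still met the rule with the number of genes detected held fixed. Without the 38 cells that meet the chondrogenic marker rule (at least 3 of *Sox9*, *Col2a1*, *Acan*, *Col9a1* and *Matn1*), 1 of the 26 was still called, beside 84 of the 100 pairs of the mitotic group. *Sox9*, *Col2a1* and *Col9a1* are members of the *Col9a2*-*Sox5* group, so leaving these cells out removes cells high for it by construction. No gene of the mitotic group is in the rule, so these counts are not a like comparison.

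Members of the group differed in how widely they were present. *Col2a1*, the main collagen of cartilage, had 5 reads in 54 cells of NXT0142 and 58 of NXT0143, *Sox9* in 79 in all, *Col9a2* in 55, *Sox5* in 49 and *Sox6* in 41. Late cartilage genes were rare, *Acan* in 17 cells, *Hapln1* in 6 and *Matn1* in 4. *Sox9* had a normalized value of 0.242 in the lowest cell, 281 at the median and 6558 at the highest in NXT0142, and of 0.242, 215 and 2278 in NXT0143. *Col9a2* was at its floor of 0.320 in the median cell of each run and reached 2085 and 2416. Presence of a broad gene such as *Col2a1* thus covered most cells, while *Col9a2* and the *Sox* partners split them.

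The *Dkk2*-*Tpm1* group included *Dkk2*, *Tpm1* and *Tpm2* (tropomyosins of actin filaments), *Lum*, *Kctd12*, *Shox2*, *Tril*, *Adgrl2*, *Col1a1*, *Egfl6* and *Zfhx3* (a transcription factor). *Dkk2* (chromosome 3, 132085292 to 132180304) had 5 partners and *Tpm1* 4. The zeugopod markers *Shox2* and *Col1a1* were thus members, with 2 partners and 1. *Dkk2* had 5 reads in 16 and 17 cells and reached 3614 in NXT0142 and 2470 in NXT0143 from a median at the floor of 0.270. *Tpm1*, in 44 and 46 cells, had medians of 83.7 and 43.4 and highest values of 4605 and 2218. All 66 pairs of the group were above 0 in each run, with medians of 0.47 and 0.44. Of its 12 called pairs, 4 still met the rule with the number of genes detected held fixed, and its mean correlated with that number at 0.51 and 0.38.

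Collagens and other matrix genes outside the group mostly varied with its mean, and regulators of connective tissue did so only in part. Of 13 matrix genes tested outside the groups, 12 correlated above 0 with it in both runs, *Fstl1* (-0.24 and 0.05) being the exception. Of 8 regulators, 4 did so (*Osr1*, *Meox2*, *Tcf4*, *Tcf7l2*) and 4 were below 0 in both runs, *Ebf1* at -0.48 and -0.06, *Ebf2* at -0.38 and -0.27, *Osr2* at -0.17 and -0.09 and *Itm2a* at -0.05 and -0.18. No share over all genes tested was computed for this mean or for that of the *Col9a2*-*Sox5* group. The counts of genes above or below 0 therefore have no baseline and are a description. The strongest are given here. *Osr1*, a regulator of irregular connective tissue, correlated with it at 0.70 in NXT0142 and 0.50 in NXT0143, *Col3a1* at 0.67 and 0.56, *Dcn* at 0.42 and 0.59, *Col1a2* at 0.42 and 0.53 and *Meox2* at 0.42 and 0.56. The same 5 genes ran opposite to the mean of the *Col9a2*-*Sox5* group, with which 9 of the 13 matrix genes and 3 of the 8 regulators were below 0 in both runs, *Osr1* at -0.62 and -0.39, *Col3a1* at -0.73 and -0.46, *Dcn* at -0.46 and -0.39, *Col1a2* at -0.34 and -0.59 and *Meox2* at -0.50 and -0.55. Against the *Col9a2*-*Sox5* mean, *Hoxd11* gave 0.08 and 0.00, *Hoxd10* 0.12 and 0.15 and *Hoxa10* 0.04 and -0.15. *Hoxa11* gave -0.03 in NXT0142 and -0.37 in NXT0143, and *Hoxd8* 0.19 and -0.47, a change of sign between runs.

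The *Col9a2*-*Sox5* and *Dkk2*-*Tpm1* groups ran against each other. The median correlation over the 156 pairs between them was -0.39 in NXT0142 and -0.33 in NXT0143, with 1 pair above 0 in the former and 0 in the latter. Pairs between the mitotic group and either of them had medians of -0.09 and -0.00 (*Col9a2*-*Sox5*) and of 0.10 and 0.02 (*Dkk2*-*Tpm1*). Of the 82 opposite pairs, 69 held a gene of the *Col9a2*-*Sox5* group, 37 a gene of the *Dkk2*-*Tpm1* group, 29 one of each, and 0 a gene of the mitotic group. The most negative were *Sox6* with *Tpm1* (-0.58 and -0.63), *Sox9* with *Egfl6* (-0.62 and -0.54), *Sox5* with *Tpm1* (-0.67 and -0.54), *Col2a1* with *Tuba1a*, an alpha-tubulin gene (-0.54 and -0.55), and *Meox2* with *Sox5* (-0.53 and -0.52). The heat map of correlations sets the 3 groups side by side.

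**Figure D3:**
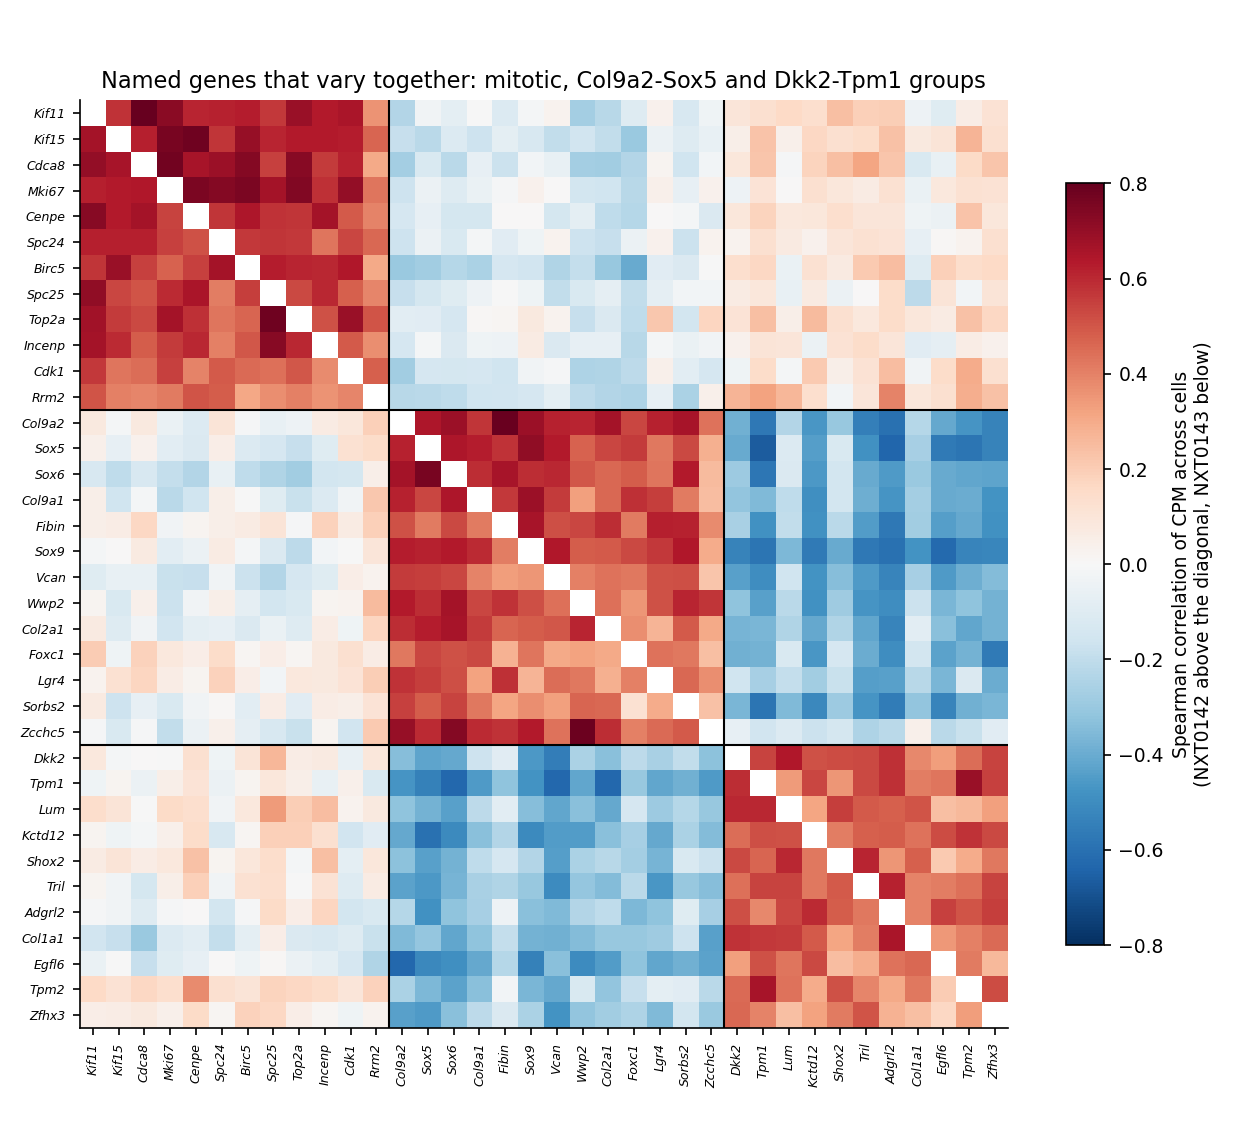
Spearman correlation of CPM across cells for the 36 genes of the 3 groups that are named in the text, with NXT0142 (58 cells) above the diagonal and NXT0143 (65 cells) below, red above 0 and blue below 0. The blocks on the diagonal, for the mitotic, *Col9a2*-*Sox5* and *Dkk2*-*Tpm1* groups in that order, are mostly red in both runs (medians of 0.44 to 0.53 over all genes of a group), and the block between the latter groups is blue (medians of -0.39 and -0.33 over all their genes).

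The same opposition was seen cell by cell. The means of log2(CPM + 1) over the *Col9a2*-*Sox5* and the *Dkk2*-*Tpm1* genes correlated at -0.76 over 58 cells and at -0.68 over 65. At a mean of 5 or more, a value chosen after the data were seen, 38 cells were high for the *Col9a2*-*Sox5* group (19 and 19), 44 for the *Dkk2*-*Tpm1* group (20 and 24), 0 for both and 41 for neither (19 and 22). In the runs together, 4 cells lay within 0.5 of that value for the *Col9a2*-*Sox5* mean and 8 for the *Dkk2*-*Tpm1* mean. The mitotic mean was at 5 or more in 23 cells (13 and 10), of which 4 were high for *Col9a2*-*Sox5* and 11 for *Dkk2*-*Tpm1*. The number of genes detected moved with the *Col9a2*-*Sox5* mean at -0.48 in NXT0142 and at -0.06 in NXT0143, and the spike-in share at 0.38 and 0.00. With the number of genes detected held fixed, 42 pairs met the rule for opposite pairs, against 82.

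**Figure D4:**
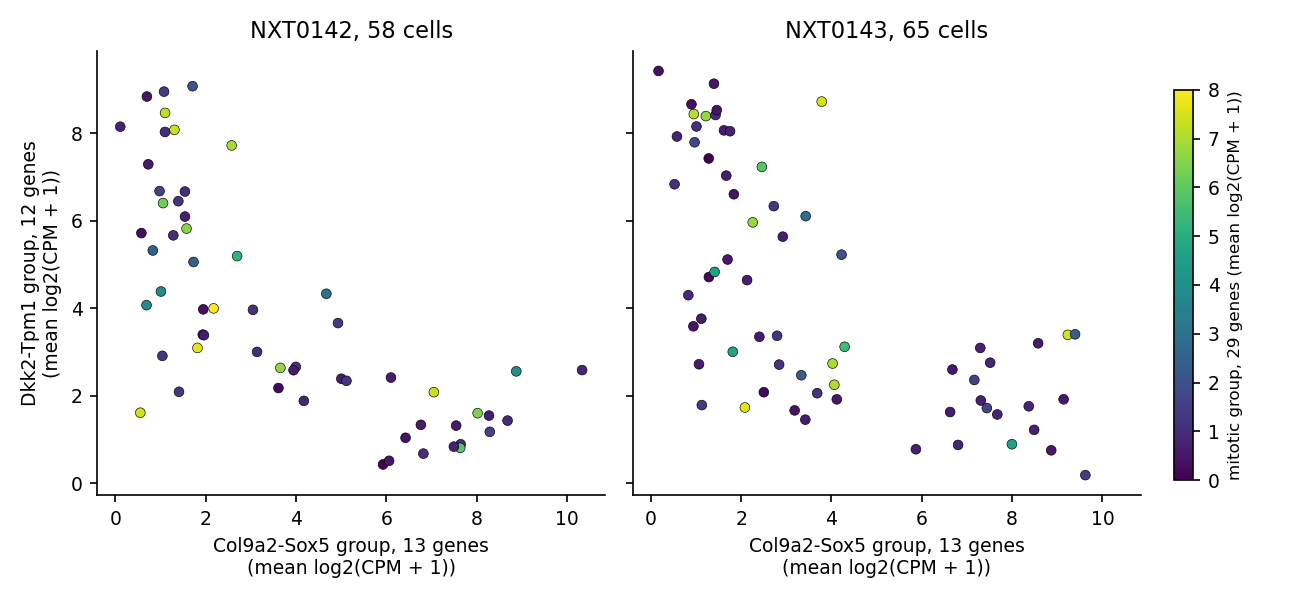
Mean log2(CPM + 1) per cell over the 13 genes of the *Col9a2*-*Sox5* group (x axis) and the 12 genes of the *Dkk2*-*Tpm1* group (y axis), coloured by the mean over the 29 mitotic genes, 1 panel per run. Cells lie along both axes and none is at 5 or more on both, and the 23 cells with a high mitotic mean are found along both arms and between them.

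Of the called pairs outside the groups, 47 share at least 5% of their 31-base words or lie within 10 kb of each other, against 0 of the 138 pairs inside the groups. Among the 10 highest pairs more than 10 kb apart were *Rnaset2b* with *Rnaset2a* (0.98 in the lower run), *RP23-201A9.1* with *Park7* (0.96), *Psmc4* with *Hydin* (0.96), *Rapgef3* with *Golt1b* (0.95), *Eef1b2* with *RP24-257C17.2* (0.94), *Lgr6* with *Eif3k* (0.94), *Cftr* with *Abca16* (0.94), *Psme2b* with *Psme2* (0.93) and *Med1* with *Abca16* (0.93). The *Rnaset2b*, *Eef1b2* and *Psme2b* pairs share 84.8%, 59.4% and 76.5% of such words, so their reads cannot be told apart with certainty. *RP23-201A9.1* and *Park7* share 0.38%. No such words are shared by *Psmc4* with *Hydin*, *Rapgef3* with *Golt1b*, *Lgr6* with *Eif3k*, or *Abca16* with *Cftr* or *Med1*. Neither are any shared by *Hoxa10* with *Cdx4* (0.90 and 0.79). Their values are given as deposited and are uncertain. Other called pairs included *Fos* with *Jun* (0.51 and 0.57), *Egr1* with *Ier2* (0.57 and 0.58) and *Id1* with *Cyr61* (0.54 and 0.58). The replication genes *Gmnn* and *Tyms* were at 0.57 and 0.52. These pairs were picked by name from the called pairs. *Fos* with *Slc6a6* (0.59 and 0.82) and *Egr1* with *2810039B14Rik* (0.74 and 0.84) had higher values.

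Read by list, few functions varied together. The median correlation over all pairs was 0.03 in each run. G2 and mitosis genes had medians of 0.63 and 0.55 (17 of 36 pairs called) and cartilage genes of 0.57 and 0.60 (12 of 21). Immediate early genes followed at 0.37 and 0.40, BMP targets at 0.32 and 0.35, with *Id1* and *Id3* at 0.58 and 0.49, heat shock genes at 0.31 and 0.17, and replication genes at 0.26 and 0.23. Connective tissue matrix gave 0.12 and 0.19, ribosomal proteins 0.09 and 0.08, oxidative phosphorylation 0.08 and 0.10, the proteasome 0.11 and 0.09 and the spliceosome 0.06 and 0.08. The subunits of large constitutive complexes were thus only slightly above the median of all pairs, while those of cartilage and mitosis stood well above it. For ribosomal proteins, whether gene copies affected the counts and so these correlations was not tested.

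Cells were also counted by markers of cell types, each with at least 5 reads of a required number. Chondrogenic markers (3 of *Sox9*, *Col2a1*, *Acan*, *Col9a1*, *Matn1*) were met by 38 cells (30.9%, 22.9 to 39.9), 19 of 58 and 19 of 65. Tendon markers (2 of *Scx*, *Tnmd*, *Tnc*) were met by 17 cells (13.8%), 11 and 6 by run, and 3 of them were also counted as chondrogenic. Cycling markers (3 of *Mki67*, *Top2a*, *Ccnb1*, *Cdk1*) were met by 23 cells (18.7%), 14 and 9 by run, of which 7 were chondrogenic and 4 tendon. Cycling cells had a median of 5015 and 5206 genes detected by run, the others 4015.5 and 3681. No cell met the markers of muscle, epithelium, endothelium, macrophage, Schwann cells or pericytes, for which the exact interval reaches 2.95% (3 cells would be 2.44%). The blood list had 1 of 4 genes in the table and could not be used. Single markers of these types did occur, *Csf1r* in 17 cells, *Pax7* in 15, *Cspg4* in 14 and *Epcam* in 9. *Myod1*, *Myog*, *Cdh5* and *Aif1* reached 5 reads in 0 cells, and 71 cells (57.7%) met no lineage list.

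Chondrogenic-like cells by these markers were also compared with the other cells in genes that the count did not use. *Foxc1* belongs to the *Col9a2*-*Sox5* group, as do the markers *Sox9*, *Col2a1* and *Col9a1*, and *Meox2* and *Osr1* ran opposite to its mean. The same cells and libraries are read, so the differences of these genes restate those correlations and are not separate support. *Meox2* was present in 3 of 19 chondrogenic-like and 28 of 39 other cells of NXT0142, and in 5 of 19 and 31 of 46 of NXT0143. *Osr1* was present in 0 of 19 and 18 of 39, and in 3 of 19 and 26 of 46. *Foxc1* went the other way, with 12 of 19 and 3 of 39, and 10 of 19 and 6 of 46. *Hoxd11* was alike in range, with 16 of 19 and 35 of 39, and 13 of 19 and 34 of 46. Other genes changed direction between runs. *Ebf1* was present in 14 of 19 and 21 of 39 cells of NXT0142, and in 6 of 19 and 30 of 46 of NXT0143. *Col3a1* was present in 13 of 19 and 34 of 39, and in 17 of 19 and 38 of 46. Genes of bone formation were rare in all cells, *Runx2* in 14 and *Sp7* in 1, and the joint genes *Gdf5* and *Erg* were in 18 and 14.

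Embryos of both sexes were present among those pooled, as read from *Xist*, the RNA of the inactive X chromosome, and from Y-linked genes. In NXT0142, 20 cells had *Xist* alone, 22 had at least 2 of *Ddx3y*, *Eif2s3y*, *Kdm5d* and *Uty* alone, 5 had both (8.62%, interval 2.86 to 18.98) and 11 had neither. In NXT0143 these were 9, 32, 0 and 24 cells. *Xist* thus had 5 reads in 25 of 58 cells of NXT0142 and in 9 of 65 of NXT0143. The reason for this difference between runs was not tested. *Kdm5d* had 5 reads in 17 of the 25 *Xist* cells of NXT0142 and in 6 of the 9 of NXT0143, whereas *Ddx3y* had them in 5 and 0, *Eif2s3y* in 0 and 0 and *Uty* in 1 and 0. *Kdm5d* also correlated with the autosomal gene *Fkbp3* at 0.86 and 0.68, so its reads are an uncertain mark of the Y chromosome. Without *Kdm5d*, a rule added after the data were seen, 0 cells had both when 2 Y-linked genes were required and 6 cells, all in NXT0142, when 1 was. The 5 cells with both had a median of 4977 genes detected, the other cells of that run 4282.

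The runs differed for part of the genes. Of 6207 genes that reached 5 reads in 20% or more of the cells in 1 run or the other, 818 (13.2%) had a mean log2(normalized value + 1) at least 1 higher in NXT0142 and 68 (1.1%) at least 1 higher in NXT0143. The median difference over all genes was 0.34 on this scale and 0.15 on log2(CPM + 1), on which 543 and 205 genes passed the same size. The largest differences of mean log2(normalized value + 1) toward NXT0142 were *Alkbh5*, an RNA demethylase (3.88, in 56 and 43 cells), *Hoxa11os* (3.78, 47 and 22 cells), *Nr2f2*, a nuclear receptor (3.53, 51 and 42), *Asb4* (3.50, 41 and 21) and *Rrn3*, a factor for ribosomal RNA transcription (3.12, 47 and 33). Toward NXT0143 they were *Sox11*, a transcription factor (-2.75, 55 and 65 cells), *Lsm14b* (-2.04), *AA465934* (-1.96), *Lum* (-1.90, 15 and 29 cells) and *Dnajc7* (-1.69). *Hoxa11os* overlaps *Hoxa11* on the other strand, and their reads cannot be told apart without strand.

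*Hox* genes were among those with more in NXT0142. The 4 *Hoxd* genes that entered the run comparison were higher there by at least 1, as were *Hoxa9*, *Hoxa10*, *Hoxa11* and its antisense RNA *Hoxa11os*, the last pair not being separable. *Hoxd10* had a median normalized value of 177 and a highest of 2788 in NXT0142, against 1.17 and 4158 in NXT0143, with the lowest at 0.583 in each, and *Hoxa10* had 5 reads in 56 and 50 cells. *Hoxd8* was present in 39 and 29 cells, *Hoxd9* in 23 and 12 and *Hoxa9* in 28 and 20. The ranges overlapped in each case. Cartilage genes gave 0 of 8 past that size in either direction and connective tissue matrix 1 of 16, *Lum*. The opposition between the *Col9a2*-*Sox5* and *Dkk2*-*Tpm1* groups was thus present in each run, and the *Hox* levels were not alike between them.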

How the data were processed

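The 123 zeugopod cells, taken from pooled mouse embryos and treated as 1 sample, were analysed by run. Per the labels and the study's methods, reads were aligned by the authors to the GRCm38 build (Bowtie2, local mode, version not given in the sources used here) and deposited raw counts of uniquely mapped reads per gene and ERCC spike-in, without molecular identifiers. The deposited normalized signal is the count divided by a spike-in size factor, plus 1, per kb of gene length. Spike-in columns followed library order and not names, in which order the totals of 123 of 123 cells matched the size factors within 0.5%.

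CPM, Spearman correlations and shares of cells were computed with Python 3.11.15, numpy 2.4.6, scipy 1.17.1 and pandas 2.3.3, and tested on simulated data. No doublet caller was run and no test across cells was made. The members and gene lists were chosen with earlier results of these data known. Genes were named by rank (the 10 highest, the 5 narrowest and widest, the 10 highest pairs, the 10 most connected per group, the 5 largest run differences), list membership or marker role; others were named after their values were seen, and some items are not reported here. GENCODE transcripts were used to find shared 31-base words. Alternatives comprised normalized values, other thresholds, thinning to 500000 reads (seed 42), partial correlation and leaving out cells of marker classes.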

Additional observations from a re-analysis of the deposited data

How the results depend on the processing

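Each result was recomputed under other settings, 1 choice at a time, except that thinned run differences changed scale, depth and cells together. The number of genes in nearly all cells (62) became 139 at 1 read, 95 at a normalized value of 5, 147 at 90% of cells, 94 with all cells as 1 group and 98 in NXT0142 alone. Bimodal genes (508) became 83 with at most 5% of cells between, 1571 with 20%, 165 with low cells below 1 CPM, 1085 in NXT0142 alone and 1179 in NXT0143 alone. Of the 44 bimodal genes named by rank or list, 12 were still called with at most 5% between and 20 with low cells below 1 CPM. On normalized values 30 were still called, and 38 after thinning. Pairs that vary together, per 1000000 pairs (23.9), became 50.998 on normalized values, 18.8 after thinning, 15.9 with genes detected held fixed, 68.6 at a correlation of 0.4, 11.9996 at 0.6, 42.8 among genes in 50% of cells and 35.5 with no filter. Opposite pairs (7.45 per 1000000) became 4.18 on normalized values, 12.9 after thinning, 3.82 with genes detected held fixed, 14.7 among genes in 50% of cells and 1.78 with no filter. Genes higher in NXT0142 (818) became 1283 and 237 with pseudocounts of 0.1 and 10 and 543 on CPM, and those higher in NXT0143 (68) became 155, 11 and 205, and 236 on thinned CPM. Chondrogenic cells were 43.1% at 1 read. Cells with both *Xist* and Y-linked RNA were 11.4% at 1 read, 0.840% after thinning and 0% without *Kdm5d*, cells with neither 14.6% at 1 read and 49.6% after thinning, and cells with Y-linked RNA alone 26.1% after thinning. *Meox2* was present in 69.1% of cells at 1 read and 41.2% after thinning, and *Hoxd10* in 67.5% at 1 read. The causes were not tested, except where fewer or more genes or cells pass by construction. The other 71 such values moved less. Of single-gene, single-pair and list values, 571 kept their call or value, 93 lost the call, 13 moved and 0 reversed. Part of the 571 could not change. A gene bimodal in each run is so by rule in each run alone and with 20% between. A gene in nearly all cells at 5 reads is so at 1 read. A single pair keeps its correlation at other thresholds and with no filter. The tally is therefore not a measure of stability. After thinning, which left out 4 cells, 29, 20 and 8 of the 100, 26 and 12 pairs of the mitotic, *Col9a2*-*Sox5* and *Dkk2*-*Tpm1* groups were still called. Without the 38 chondrogenic cells these were 84, 1 and 8, and the median over the *Col9a2*-*Sox5* pairs in the lower run was 0.19. Those cells were chosen in part by genes of the *Col9a2*-*Sox5* group, so its loss follows in part from the choice. No paired analysis was possible because embryos were pooled and the cells carry no embryo label. Leaving out a replicate was not possible for the same reason. Reads without molecular identifiers limit levels near 5 reads, and with 58 and 65 cells a gene in few cells has wide intervals.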
